A study of Canis lupus familiaris with 124 samples.

Results

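Carboplatin is a platinum drug that crosslinks DNA, and cells answer such lesions with repair, cell cycle arrest or death. A set of 289 genes of the dog, out of 32183 genes counted, was examined here because the study ranked them high for carboplatin resistance. They were chosen by measured values: the study correlated the carboplatin concentration that halved metabolic activity or cell count of its cell lines with their RNA levels, guided by a protein network. The line Adcarc1258 entered that ranking but is not among the lines described below. The direction of each correlation is not given here. Genes of rank 150 or better in either of these rankings were taken, and 5 genes that also stood within rank 150 for doxorubicin and 2 genes left out by name were removed from the 296. The ranking for metabolic activity gave 141 members, that for cell count gave 144, and 4 members stood in both. Because levels in the cell lines helped to choose the members, differences between cell lines are described below without a test. Tissues took no part in the choice, and lines were tested against tissues and tissues against each other. The difference between passages of the same line was not ranked either, though the same libraries gave the levels that were.

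The members belong to several known systems. The Sin3 complex is a scaffold that brings histone deacetylases to promoters and so lowers transcription. In JAK-STAT signaling, a cytokine joins its receptor chains, the attached Janus kinases phosphorylate the receptor, and STAT transcription factors carry the signal to the nucleus. Other members serve RNA processing, translation, vesicle traffic, mitochondria, the extracellular matrix and leukocytes.

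RNA of 8 canine cell lines and 9 tumor tissues was sequenced without any treatment. Adcarc0846 (dog 2, aged 6 years, passages 447 and 448), Adcarc1508 (dog 3, aged 11, passages 97, 105 and 106) and Adcarc1511.1 (dog 4, aged 6, passages 88, 94 and 95) came from prostate adenocarcinoma (PAC). Metadcarc1511.2 (passages 68, 75 and 79) and Metadcarc1511.3 (passages 79, 86 and 87) came from PAC metastases of dog 4. TCC0840 (dog 5, aged 10, passages 350 and 352), TCC1506 (dog 7, aged 10, passages 98, 106 and 107) and TCC1509 (dog 6, aged 9, passages 77, 85 and 85) came from transitional cell carcinoma (TCC). Of the tissues, P2 was PAC of dog 2 and both Ln4.2 and Ln4.3 were metastases of PAC in dog 4. P6.1 (dog 6), B7 (dog 7), B8 (dog 8, aged 11), B9 (dog 9, aged 8) and B10 (dog 10, aged 8) were TCC, and Ln6.2 (dog 6) was a metastasis of TCC. Pairs of a cell line and its own tissue were Adcarc0846 with P2, Metadcarc1511.2 with Ln4.2, Metadcarc1511.3 with Ln4.3, TCC1509 with P6.1 and TCC1506 with B7. Each cell line is 1 culture from 1 tumor, and 3 of the 8 came from dog 4, so that dogs and not cell lines are the independent units.

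Pooled over its libraries, each cell line held between 33500674 and 55488800 counts, and each tissue between 11920463 and 18086895. Levels are given as CPM, counts scaled to library size with TMM factors, and 3 counts were taken as the floor below which a gene was not told from 0. The tissues held other cells besides tumor cells. The summed level of 10 leukocyte markers was between 3.65 and 269.7 CPM in the cell lines and between 190.4 and 4600 CPM in the tissues, with TYROBP and C1QB at 0 in all cell lines. That of 8 fibroblast markers was between 62.8 and 1570 CPM in the cell lines and between 630.8 and 37370 CPM in the tissues, and that of 5 endothelial markers between 5.13 and 86.9 CPM and between 60.8 and 1684 CPM. The highest sums in the cell lines came mostly from a single marker. These were CD74 with 253.4 CPM in TCC0840, COL5A2 with 1550 CPM in Adcarc1511.1 and FLT4 with 86.16 CPM in Metadcarc1511.2. For 6 epithelial markers the ranges overlapped widely, with 556.4 to 2870 CPM in the cell lines, lowest in TCC1509, and 148 to 3282 CPM in the tissues, lowest in P2. In such bulk samples, fewer cells of a type and less RNA per cell cannot be told apart.

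Most members were genes in common use. On the scale per length, the median member had 13.2 TPM, a share of transcripts corrected for gene length, over the cell lines, against 12.3 for all genes that entered the comparison with tissues. In the cell lines 26 members had a median of 100 TPM or more, 138 of 10 to 100, 63 of 1 to 10 and 62 of less than 1. All 17 samples held at least 10 counts of 187 members. At the other end, 13 members held no more than 3 counts in any cell line and 75 held no more than 3 in at least 1 of them. The median member ranged 2.62-fold between the lowest and the highest cell line, after adding 1 CPM, against 2.42-fold over all genes tested.

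Among the cell lines, TCC1509 and TCC0840 held the extremes. TCC1509 had the highest level of 86 members and the lowest of 70, which is 29.8% and 24.2% of them, where it had the highest of 16.2% and the lowest of 15.1% of all genes tested. TCC0840 had the highest level of 66 and the lowest of 70 members, or 22.8% and 24.2%, against 14.7% and 16% of all genes tested. The extremes of TCC1509 were mostly genes of the cell count ranking, with 60 highest and 59 lowest, and those of TCC0840 mostly genes of the metabolic activity ranking, with 45 highest and 52 lowest. As levels in the cell lines helped to choose the members, these counts are a description, and their cause was not tested.

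Of the 4 members in both rankings, JAK1 and JAK2 code for Janus kinases, RMI2 for a subunit of the complex that dissolves crossed DNA strands during repair by recombination, and TMEM218 for a membrane protein of the cilium. JAK1 was between 125 CPM in TCC0840 and 274 CPM in TCC1509, with a median of 203 CPM. JAK2 kept within a narrower band, from 41.9 CPM in Adcarc1508 to 81.6 CPM in TCC1506. TMEM218 was lowest in Adcarc0846 with 6.75 CPM and highest in Metadcarc1511.2 with 20.1 CPM. RMI2 stood out by its absence in one line: it had 0 counts in all 3 libraries of TCC1509, and 2.47 CPM in TCC1506, 3.09 in TCC0840, 3.41 in Metadcarc1511.3, 3.92 in Adcarc1511.1, 4.08 in Metadcarc1511.2, 4.77 in Adcarc0846 and 5.57 in Adcarc1508. The tissues of dog 6, from which TCC1509 was derived, also had the lowest RMI2 of the 9, with 0.114 CPM (2 counts) in P6.1 and 0.143 CPM in Ln6.2, where the other 7 were between 1.03 and 3.58 CPM. Its partner RMI1 was present in TCC1509 at 40.5 CPM, the highest of the cell lines, and TOP3A, the topoisomerase of the same complex and no member, was between 69.2 and 87.5 CPM in the 8 lines.

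The 10 members with the widest range over the cell lines were DCN, SULF1, GDF15, TMEFF2, GM2A, ABI3BP, PRDX4, IGFBP4, OLR1 and RBP4. For 6 of them 1 line, TCC1509, stood far from the rest. Decorin (DCN), a small proteoglycan that binds collagen, was at 421 CPM in TCC1509 and at no more than 0.0573 CPM in the other 7. ABI3BP, another matrix protein, had 144 CPM in TCC1509, 5.6 CPM in TCC1506 and at most 0.0997 CPM elsewhere. The secreted cytokine GDF15 had 257 CPM in TCC1509, 23.9 CPM in Metadcarc1511.2 and at most 0.203 CPM elsewhere. IGFBP4, which binds insulin-like growth factors, had 323 CPM in TCC1509 and 2.43 to 16.2 CPM in the others, and the retinol carrier RBP4 had 83.3 CPM in TCC1509 and at most 1.83 CPM in the others. PRDX4, a peroxiredoxin of the endoplasmic reticulum that removes peroxides, showed the opposite: it had 0.0966 CPM in TCC1509, from 5 counts, and between 49.6 and 147 CPM in the other 7 lines.

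The remaining 4 genes of widest range followed other lines. TMEFF2, a membrane protein with follistatin domains, had 0 counts in TCC1506 and 4.33 CPM in TCC0840, and between 45.0 and 221 CPM in the other 6. SULF1, which trims sulfate from heparan chains at the cell surface, was at 364 CPM in TCC1509 and 177 CPM in TCC1506, between 21.3 and 54.9 CPM in the 3 lines of dog 4, and at most 0.283 CPM in Adcarc0846, Adcarc1508 and TCC0840. GM2A, the activator protein for the breakdown of GM2 ganglioside in lysosomes, was low in the lines of highest passage, with 0.630 CPM in TCC0840 and 2.21 CPM in Adcarc0846, and between 55.0 and 299 CPM elsewhere. OLR1, a scavenger receptor for oxidized lipoprotein, ranged from 0 counts in TCC0840 to 84.3 CPM in Metadcarc1511.2, but its libraries differed widely within a line, as described further below.

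**Figure D1:**
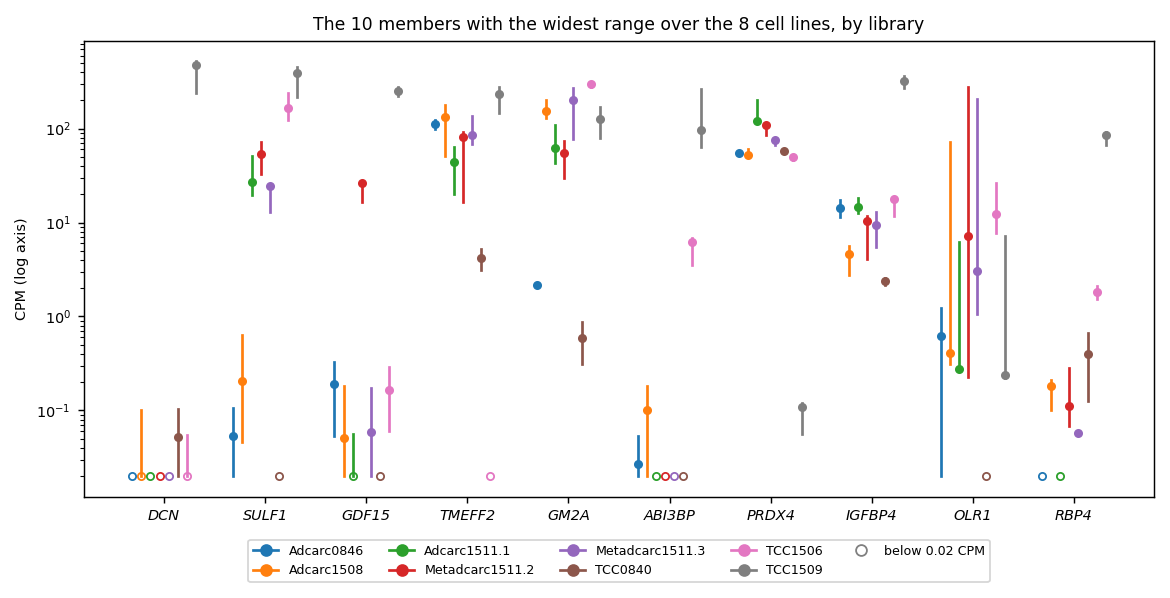
CPM (log axis) of the 10 members with the widest range over the 8 cell lines. Points are the median and bars the lowest to highest library of a line (2 or 3 libraries), and open points lie below 0.02 CPM. DCN reached 421 CPM in TCC1509, and OLR1 spread widest among the libraries of a line.

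At the threshold of the rankings, the last gene inside for metabolic activity was DLGAP1, with 20.3 to 112 CPM in the cell lines, and the first outside was FIBIN, with at most 0.0217 CPM. For cell count the last inside was RAB33B, with 5.70 to 13.7 CPM, and the first outside was RNF135, with 5.25 to 12.1 CPM, which is a member through the other ranking.

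All 7 members of the Sin3 list came from the metabolic activity ranking. Per length, RBBP7, a histone-binding subunit, had the highest median of the 7 in the cell lines with 209 TPM, and SAP25 the lowest with 0.258 TPM. The scaffold SIN3A was between 80.6 CPM in TCC1506 and 142 CPM in Adcarc0846, and SUDS3 between 63.4 and 120 CPM. RBBP7 ranged from 127 CPM in Metadcarc1511.3 to 285 CPM in TCC0840. SAP30 was between 12.5 and 45.3 CPM, BRMS1 between 21.4 and 42.1 CPM and SAP30L between 4.07 and 9.16 CPM. SAP25, an associated protein, was low in every line, between 0.0386 and 0.143 CPM, and between 0.331 and 3.89 CPM in the tissues, so that both groups did not overlap. Over the lines SAP30 spanned 3.62-fold, and the other 6 between 1.76-fold (SIN3A) and 2.48-fold (SAP25, with its lowest lines set to the floor).

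Of the 3 ligands on the JAK-STAT list, oncostatin M (OSM), a cytokine made mainly by leukocytes, had 1.09 CPM in Adcarc0846 and 0 counts in the other 7 cell lines, and between 0.198 and 6.47 CPM in the tissues. Growth hormone (GH1) was at 0 in all lines but TCC1509, where it had 1 count, and reached 6.59 CPM in Ln4.3. Interleukin 11 (IL11) showed another pattern, with 0.115 CPM in TCC0840, a median of 1.19 CPM and 3.59 CPM in TCC1509, and between 0.162 and 1.02 CPM in the tissues.

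Among the receptors, OSMR, which binds oncostatin M, was between 31.6 CPM in Adcarc1511.1 and 191 CPM in TCC1509, and IFNGR2, the second chain of the interferon gamma receptor, between 64.6 CPM in TCC1509 and 164 CPM in Adcarc0846. IL20RB, a chain of the receptors for interleukins 19, 20 and 24, varied most, with 0.178 CPM in Adcarc0846 and 50.0 CPM in TCC1506. IL31RA had at most 1 count in any line. IL2RG, the common gamma chain of lymphocyte cytokine receptors, had 1.21 CPM in TCC1509 and at most 0.0216 CPM in the others. STAT6, the transcription factor of interleukin 4 and 13 signaling, was between 85.5 CPM in TCC1506 and 205 CPM in TCC0840. JAK2, JAK1 and STAT6 thus spanned 1.95-, 2.19- and 2.39-fold over the lines, while the ligands and the receptors IL2RG, IL31RA and IL20RB included lines at or near 0.

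**Figure D2:**
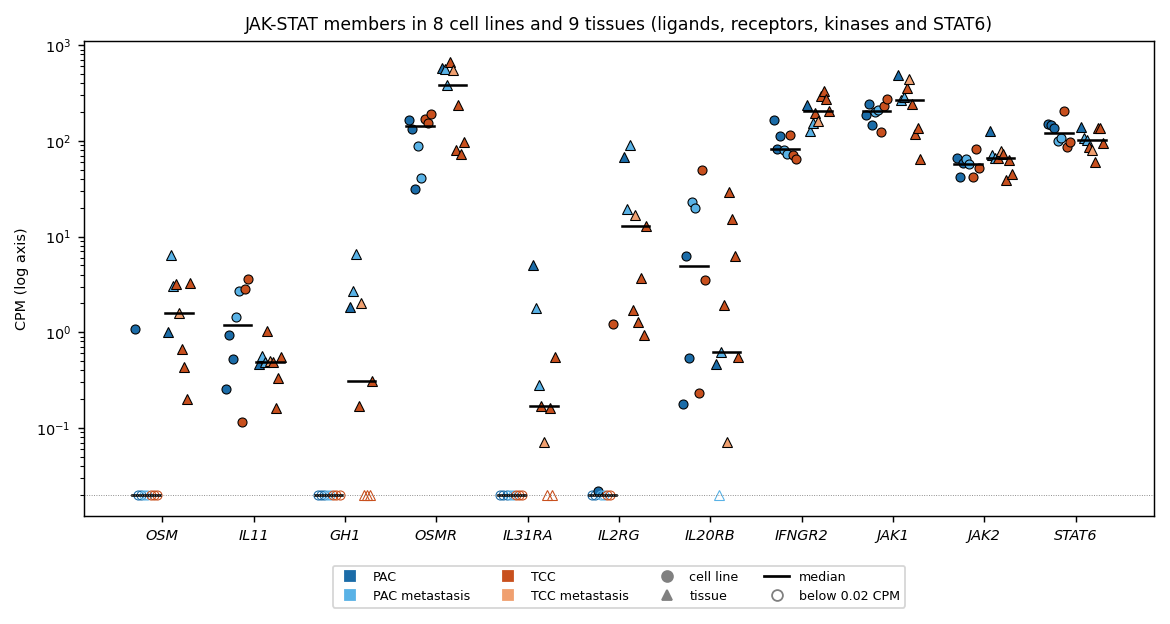
CPM (log axis) of the 11 JAK-STAT members in 8 cell lines (circles) and 9 tissues (triangles), colored by tumor class, with the median as a bar and open symbols below 0.02 CPM. JAK1, JAK2, STAT6 and IFNGR2 were present in every sample, and IL2RG was between 0.926 and 90.4 CPM in the tissues and below 0.02 CPM in 6 of 8 lines.

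Whether the members differed between the cell lines and the tumors they came from was asked over 4 dogs, with the dog as a covariate and the 2 metastases of dog 4 summed. The study isolated RNA of lines and of tissues with different kits, and kit and sample type cannot be told apart, here and below. A gene was called at an adjusted p of at most 0.05 (edgeR's quasi-likelihood test, adjusted over all genes tested) and a fold change of at least 2. Of 284 members with a mean of at least 10 counts, 0 were called higher and 1 was called lower in the cell lines, where 0.0385% and 1.51% of all 15601 genes tested were called. At an unadjusted p under 0.05 stood 40 members, or 14.1%, against 20.2% of all genes, and DESeq2 called 53 members, 7 higher and 46 lower, or 18.7% against 19.3% of all genes. The 5 members that missed the filter were CDH18, DDC, GALNT14, RAB33A and SLITRK2.

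The member that fell was RGS1, which shortens signals of G protein-coupled receptors and is best known from lymphocytes. It had 0 counts in 7 cell lines and 3 counts in TCC1509, and between 3.70 CPM in B9 and 178 CPM in Ln6.2 in the tissues, with a median of 48.8 CPM. No cell line reached the lowest tissue. Against own tissue it was at least 658-fold lower in Adcarc0846, at least 1237-fold lower in the metastasis lines of dog 4 and at least 1487-fold lower in TCC1506, with the lines set to 3 counts. TCC1509 held 3 counts and P6.1 2054. The fitted log2 fold change was -12.38 ± 1.00 (SE, 4 dogs), with an adjusted p of 0.0129 by edgeR. Fitted fold changes of genes at 0 counts depend on a prior count and are no bounds, here and below. Genes at or near 0 in the lines passed the filter through the tissues alone, so their direction was fixed before the test, here and below. The call was lost without dog 2 (adjusted p = 0.0782), dog 4 (0.18) or dog 6 (0.114), or without replicate 3 of the lines (0.0607), by edgeR, with RGS1 lower in each. Leukocyte markers summed to at least 190.4 CPM in the tissues and to at most 70.4 CPM in the lines of these pairs, and their part in the difference was not tested.

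Direction without regard to size was counted next. A cell line lay below its own tissue in all 4 dogs for 36 of the 284 members, or 12.7%, where 15.7% of all genes tested did. It lay above in all 4 dogs for 27 members, or 9.51%, against 13.1% of all genes. The median log2 fold change was -0.08 over the members and -0.03 over all genes tested. By either count, the share of members was near that of all genes. For comparison, 291 doxorubicin genes, chosen by the mirrored rule, had 12 of 289 tested called lower, or 4.15%. Of the members 0.352% and of all genes 1.51% were called lower. The line lay below its own tissue in all 4 dogs for 23.5% of the doxorubicin genes and above for 11.8%.

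The lists differed in where their members lay. Of 13 genes of leukocytes, 1 was called lower, 12 had a negative log2 fold change, and 6 lay lower in all 4 dogs, with a median of -7.36 or, with genes at 0 set to the floor, -5.46. DESeq2 called 9 of them lower. Members of this list at 0 in the lines were tested only because of their tissue counts, so their direction is a description and no test. The 4 described next were picked after their values were seen. FGR, a Src family kinase of myeloid cells, had at most 0.0773 CPM in the lines and between 0.728 and 44.2 CPM in the tissues (log2 fold change -9.26, not called). MYO1F, a myosin of leukocytes, had at most 0.203 CPM in the lines and at least 1.82 CPM in the tissues (-7.36, not called). TREM2, a receptor of macrophages, had 0 counts in all 8 lines and reached 25 CPM in tissues. STX11 was the exception, with a positive log2 fold change of 1.00 that was not called.

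Of 12 members of the extracellular matrix list, 0 were called, 11 had a negative log2 fold change and 6 lay lower in all 4 dogs, with a median of -4.23, or -3.85 with the floor. DESeq2 called 9 of them lower. DCN was between 3.70 CPM in B7 and 3449 CPM in P2 in the tissues. Against own tissue it was at least 45300-fold lower in Adcarc0846, at least 42860-fold lower in the lines of dog 4 and 3.22-fold lower in TCC1509, and TCC1506 held 1 count of it against 61 in B7. Its log2 fold change was -13.32 ± 5.29 (SE) with an adjusted p of 0.25 by edgeR, and the 4 dogs differed widely. SULF1 and ABI3BP were higher in TCC1509 than in P6.1, with log2 ratios of 2.30 and 7.72, and lower than own tissue in the other 3 dogs. Latent TGF-beta binding protein 3 (LTBP3), which stores TGF-beta in the matrix, was lower in all 4 dogs, with 26.7 to 142 CPM in the lines and 53.1 to 1239 CPM in the tissues. The fitted change was -2.24 ± 0.46 (SE) on the log2 scale, with an adjusted p of 0.0998 by edgeR and of 4.25e-05 by DESeq2. In these pairs the fibroblast markers summed to between 84.2 and 1436 CPM in the lines and between 1172 and 37370 CPM in the tissues, and their part was not tested.

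**Figure D3:**
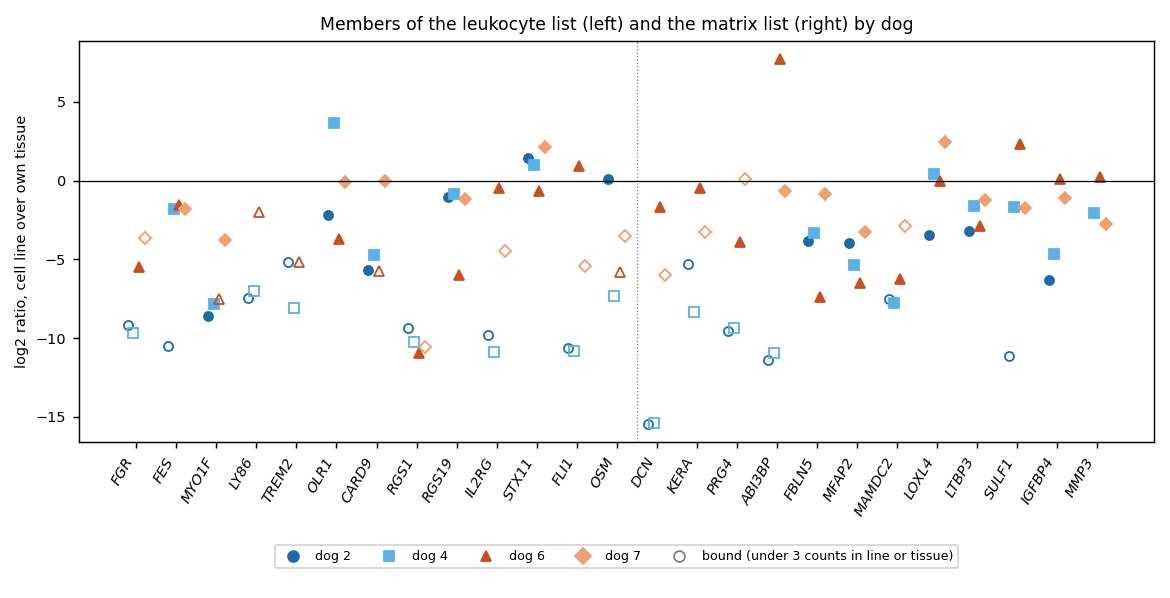
Log2 ratio of each cell line to its own tissue in 4 dogs (metastases of dog 4 summed) for the 13 members of the leukocyte list and the 12 of the matrix list. Open symbols are bounds, with fewer than 3 counts in line or tissue set to 3, and no symbol is drawn where both were at or under 3. RGS1 lay below -9 in every dog, while DCN was below -15 in dogs 2 and 4 and at -1.69 in dog 6.

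In the Sin3 list 0 of 7 members were called by edgeR and 1 by DESeq2. SIN3A and RBBP7 were higher than own tissue in all 4 dogs, with log2 fold changes of 0.45 ± 0.21 and 0.55 ± 0.30 (SE), and SAP30L and SAP25 lower in all 4, with -0.42 ± 0.39 and -4.37 ± 0.76. SAP25 had an adjusted p of 0.071 by edgeR and of 7.51e-07 by DESeq2. Of 4 other genes of the complex, RBBP4, ARID4A, SAP18 and BRMS1L, 0 were called, with log2 fold changes between -0.30 and 0.29.

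Of the 11 JAK-STAT members edgeR called 0 over the 4 dogs, and DESeq2 called 2 ligands and 3 receptors lower. JAK1 was lower in all 4 dogs (-0.56 ± 0.32, SE), and JAK2 in 3 of 4 (-0.32 ± 0.28). STAT6 differed little (0.18 ± 0.23). IFNGR2 was lower in all 4 dogs, with 64.6 to 164 CPM in the lines and 128 to 334 CPM in the tissues and a log2 fold change of -1.26 ± 0.35 (SE), at an adjusted p of 0.16 by edgeR and 0.00572 by DESeq2. OSMR had log2 ratios of -1.82, -2.88 and -1.79 in dogs 2, 4 and 6 and of 0.94 in dog 7. Of 6 further genes of the pathway 5 were tested and 1 was called, which was IL10, an inhibitory cytokine, with at most 1 count in the lines and 0.243 to 11.4 CPM in the tissues (log2 fold change -8.44 ± 1.09, adjusted p = 0.038 by edgeR). TYK2, another Janus kinase, had -0.09 ± 0.29 and was not called.

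The lists of centriole and cilium, translation, mRNA splicing and mitochondria had mostly positive values, without any call by edgeR. DESeq2 made 1 call each in the centriole and the translation list. These lists are grouped here by their values and not by a prior plan. Of all 15601 genes tested, 7604 had a positive log2 fold change. All 7 members of the centriole and cilium list had a positive log2 fold change, with a median of 0.78, and CEP89, a protein of the distal appendages of centrioles, was higher in all 4 dogs (1.23 ± 0.38, SE, adjusted p = 0.19 by edgeR and 0.042 by DESeq2). In the list of tRNA, ribosome and translation 12 of 13 were positive, with a median of 0.57. RPS3, a ribosomal protein and the highest of the list per length, was between 939 and 1396 CPM in the lines and differed little from tissues (0.18 ± 0.39). In mRNA splicing, export and decay 12 of 14 were positive with a median of 0.33, among them PUF60, a splicing factor (0.45 ± 0.41). Among mitochondrial carriers, respiration and redox 9 of 11 were positive with a median of 0.62, among them ATP5B, the catalytic beta subunit of ATP synthase (0.74 ± 0.43). The median of all genes tested was -0.03, and with DESeq2's size factors it was -0.10. The lowest of the 7 centriole members, at 0.05, was smaller than this shift, so that its sign rests on the scaling.

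The other lists had medians between -0.53 and 0.24. Chromatin and transcription factors had a median of 0.05 over 20 members, with NFE2L1, a regulator of proteasome genes, at -0.43 ± 0.38. DNA repair had 0.24 over 5, with NSMCE4A, a subunit of the SMC5-SMC6 complex, at 0.42 ± 0.37. Small GTPases and vesicle traffic had -0.02 over 19 tested, with RAB11A of recycling endosomes at 0.22 ± 0.37. Glycosylation had -0.53 over 8 tested, lipid transfer 0.24 over 12, where GM2A was higher in dogs 4 and 7 and lower in dogs 2 and 6, and TGF-beta signaling -0.40 over 5. Of 7 other genes of the TGF-beta pathway (TGFBR1, ACVR2B and SMAD1 to SMAD5) and 3 of tRNA splicing (TSEN15, TSEN34 and CLP1), 0 were called. The 138 members on no list had a median of -0.19 over 135 tested.

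**Figure D4:**
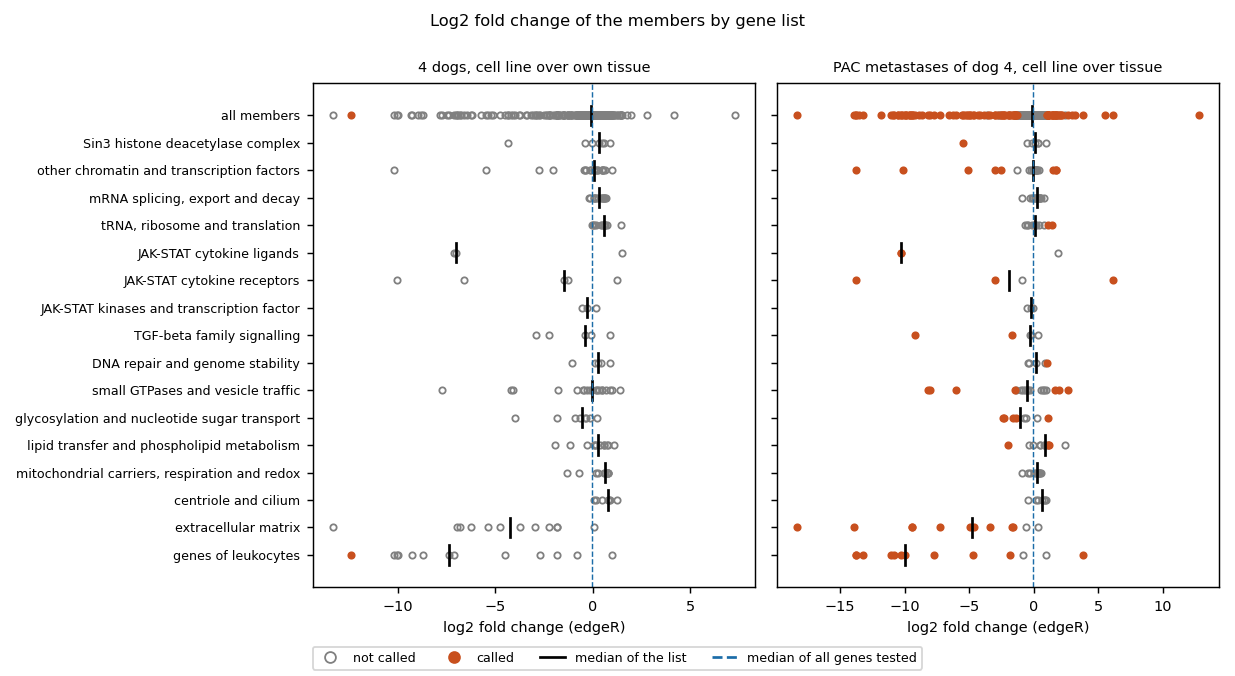
Log2 fold changes (edgeR) of the members by gene list, for cell lines against own tissues in 4 dogs and for the 2 PAC metastases of dog 4. Filled points were called, black bars are medians of a list and dashed lines medians of all genes tested. In both comparisons, the leukocyte and matrix lists lie far below 0, and the other lists of at least 4 genes within about 2 of it. The list of 3 JAK-STAT ligands also lies far below 0, with medians of -7.00 and -10.25.

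In a further comparison each metastasis line was set against its own tissue, Ln4.2 or Ln4.3. Here 28 of 282 members were called higher (9.93%) and 67 lower (23.8%), where 10.3% and 21.6% of all genes were called. Both pairs come from dog 4, so that the test speaks for this dog alone. Of 143 tested members of the cell count ranking, 46 were called lower and 8 higher. Of 143 of the metabolic activity ranking, 21 were called lower and 20 higher.

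Of 13 genes of leukocytes 10 fell, and 1 was called higher, OLR1. IL2RG had 0 counts in both lines and was at least 1859-fold lower than in the summed tissues. Of 12 matrix members 10 fell. ABI3BP was at 0 in both lines and at least 1934-fold lower, IGFBP4 had a log2 fold change of -4.61 ± 0.44 (SE), LTBP3 of -1.66 ± 0.18 and SULF1 of -1.62 ± 0.19. In JAK-STAT signaling OSM, GH1, IL2RG and OSMR fell and IL20RB was called higher. OSM and GH1 were at 0 in both lines, with 135 and 133 counts in the tissues. OSMR had 87.9 and 40.7 CPM in the lines and 558 and 384 CPM in the tissues, without overlap (log2 fold change -2.99 ± 0.24, SE, adjusted p = 0.00665 by edgeR). JAK1, JAK2 and STAT6 were not called (-0.49, -0.21 and -0.08). Of the Sin3 list SAP25 fell (-5.51 ± 0.71), and the other 6 lay between -0.53 and 0.92 and were not called. TMEFF2 rose, with 67.3 and 98.0 CPM in the lines and 1.78 and 1.67 CPM in the tissues (5.52 ± 0.28, adjusted p = 0.00429 by edgeR), as did DLGAP1, a scaffold of synapses (3.01 ± 0.18, adjusted p = 0.00441 by edgeR). RBP4 fell, with 0.162 and 0.0581 CPM in the lines and 213 and 8.05 CPM in the tissues (-9.66 ± 0.76, adjusted p = 0.00643 by edgeR). Of the further pathway genes that are no members, SAP18 of the Sin3 complex (-1.74 ± 0.17), IL10 and IL22RA1 fell and TGFBR1 rose (1.07 ± 0.20).

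The further lists varied in how many members were called, where 31.8% of all genes were, and the members named in this paragraph were picked after their values were seen. Of 8 members of glycosylation 1 rose, CHSY1, which builds chondroitin chains (1.09), and 4 fell, among them SLC35C1, which carries GDP-fucose into the Golgi (-2.29). Of 19 members of small GTPases and vesicle traffic 3 rose, SYTL2 (2.65), ARHGAP21 (1.93) and HIP1 (1.67), and 4 fell, RRAD (-8.19), RASD2 (-8.04), SYTL3 (-6.02) and STX3 (-1.48). Of 13 members of the tRNA, ribosome and translation list NOP56 and NOL12, both of ribosome assembly, rose (1.46 and 1.11). Of 5 members of DNA repair RMI1 rose by 1.02, and RMI2 had 0.88 and was not called. Of 12 members of lipid transfer STARD4 (1.18) and CDS2 (1.08) rose and PLD3 fell (-1.99). Among 20 chromatin and transcription factors BMI1 (1.74), YAP1 (1.47) and CLOCK (1.74) rose, and EAF2, TCF7, FLI1, RARB and NR1H3 fell. Of those named here, CLOCK, NOP56 and RMI1 lay above own tissue in all 4 dogs and PLD3 below.

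In the 2 TCC pairs, TCC1509 with P6.1 and TCC1506 with B7, 0 of 274 members were called in either direction, as were 0% of all genes higher and 0% lower. At an unadjusted p under 0.05 stood 16 members, or 5.84%, against 6.08% of all genes. DESeq2 called 12 members, or 4.38%, against 4.69% of all genes. Both dogs differed from each other for several named members. SULF1 was higher than own tissue in TCC1509 and lower in TCC1506, and GXYLT2, a xylosyltransferase, held 2 counts in TCC1509 against 48 in P6.1 and had a log2 ratio of 2.72 in TCC1506. PRDX4 had log2 ratios of -6.95 in TCC1509 and -0.83 in TCC1506.

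The 5 TCC tissues other than Ln6.2 were set against PAC, given by P2 and the summed metastases of dog 4. Of 282 members 0 were called higher and 4 lower (1.42%), where 0.179% and 1.96% of all genes were called, and 54 members, or 19.1%, stood at an unadjusted p under 0.05, against 17.5% of all genes. LY86, a partner of a Toll-like receptor homolog in B cells and macrophages, had 13.2, 4.2 and 3.33 CPM in P2, Ln4.2 and Ln4.3 and 0 to 0.467 CPM in the 5 TCC tissues (log2 fold change -5.41 ± 1.06, SE, adjusted p = 0.047 by edgeR). GXYLT2 had 87.8, 45.4 and 13.5 CPM in the PAC tissues and 0.728 to 4.86 CPM in the TCC tissues (-4.11 ± 0.69, adjusted p = 0.033 by edgeR). ANO5, a membrane protein of muscle and bone, had 3.33, 3.20 and 2.64 CPM against 0.233 to 0.341 CPM (-3.24 ± 0.56, adjusted p = 0.034 by edgeR). Keratocan (KERA), a matrix proteoglycan, had 3.02, 19.6 and 0.139 CPM against 0.155 to 0.625 CPM, so that Ln4.3 lay below all TCC tissues (-3.77 ± 0.72, adjusted p = 0.045 by edgeR).

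These 4 calls rested on few samples. Without B8, without B9, without P2, without the tissues of dog 4, or with Ln6.2 added to P6.1, 0 members were called by edgeR, and without P6.1 none of the 4 was among the 3 called, which were DCN, IGFBP4 and PRKAR2B. Ln6.2, the TCC metastasis left out of the test, had 1.72 CPM of LY86, 66.4 of GXYLT2, 2.65 of ANO5 and 5.30 of KERA, above all 5 TCC tissues for each. The fibroblast markers summed to 37370, 27610 and 4418 CPM in the PAC tissues, to 26220 in Ln6.2 and to at most 2659 in the other TCC tissues, and their part in the 4 differences was not tested. Metastasis, age and tumor class are also mixed in this comparison and cannot be told apart. Of the 3 PAC tissues 2 are metastases, both PAC dogs were aged 6 years, and the TCC dogs were aged 8 to 11. Organ is mixed in too, as by the study P6.1 was from the prostate and B7, B8, B9 and B10 from the urinary bladder.

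Whether the order of the tissues returned in the lines was counted over the 5 pairs. For 66 of 284 members (23.2%) the highest of the 5 lines and the highest of the 5 tissues came from the same pair, where 24.5% of all genes did so.

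Libraries of the same line, taken at different passages, agreed for most members, with a median coefficient of variation of 18.6% over the 258 members that reached 1 CPM in a line. OLR1 and IL20RB were the widest apart. In 6 lines with 3 libraries, the library of the earliest passage was therefore compared with both later ones, with the line as a covariate, a comparison added after the data were seen. Of 253 members 12 were called higher in the earliest library (4.74%) and 4 lower (1.58%), where 2.79% and 1.84% of all 13074 genes were called. The 12 include OLR1 and IL20RB, which prompted the comparison. As these libraries also gave the ranked levels, the adjusted p-values below describe them and are no independent test.

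OLR1 had 72.5 CPM at passage 97 of Adcarc1508 and 0.315 and 0.407 CPM at passages 105 and 106. It had 276 CPM at passage 68 of Metadcarc1511.2, 7.12 at passage 75 and 0.226 at passage 79, and 206 CPM at passage 79 of Metadcarc1511.3, 3.01 at passage 86 and 1.05 at passage 87. In Adcarc1511.1 it was at 6.21, 0.277 and 0.277 CPM, in TCC1509 at 7.23, 0.238 and 0.220 CPM and in TCC1506 at 26.6, 12.2 and 7.73 CPM, the earliest library first. The earliest library was thus the highest in 6 of 6 lines, and the log2 fold change was 5.67 ± 0.65 (SE). As the spread of OLR1 and IL20RB prompted the comparison, their values are a description and no test is given.

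IL20RB had 75.2 CPM at passage 68 of Metadcarc1511.2, 2.30 at passage 75 and 0.0565 at passage 79, and 55.8, 2.08 and 0.467 CPM in Metadcarc1511.3. In Adcarc1508 it was at 17.2 CPM in the earliest and 0.210 and 0.203 CPM in the later libraries, in TCC1509 at 9.33, 0.416 and 0.439 CPM, in Adcarc1511.1 at 1.22, 0.222 and 0.208 CPM and in TCC1506 at 87.9, 31.3 and 29.8 CPM. It was again highest in the earliest library in 6 of 6 lines (4.70 ± 0.56, SE). Its later libraries in 5 lines were all at or below 2.30 CPM, and only TCC1506 kept it above 29 CPM.

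The calls of both genes against the tissues of dog 4 rested on these libraries. For OLR1 the log2 fold change of the metastasis lines was 3.81 with all libraries (adjusted p = 0.0131 by edgeR) and -0.93 ± 0.43 (SE) without replicate 1 (adjusted p = 0.166 by edgeR). For IL20RB it was 6.18 (0.0218) and 2.26 ± 1.12 (0.187). Without replicate 1, 7 of the 95 calls in this comparison were lost and 8 members were gained.

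LOXL4, SYTL2, AHNAK, DLGAP1, PYROXD2 and C32H4orf36 were also highest in the earliest library of 6 of 6 lines. The members named for this comparison were picked after their values were seen. LOXL4, an enzyme that crosslinks collagen and elastin, was between 35.7 and 84.0 CPM in the earliest and between 4.82 and 34.3 CPM in the later libraries (2.16 ± 0.24, SE, adjusted p = 0.00015 by edgeR). SYTL2, which tethers vesicles to the membrane, was between 37.5 and 520 CPM and between 11.9 and 290 CPM (1.48 ± 0.17, adjusted p = 0.00015 by edgeR). AHNAK, a very large scaffold protein, had 2824 to 9084 CPM and 1104 to 4917 CPM (1.16 ± 0.20, adjusted p = 0.00148 by edgeR), and DLGAP1 45.9 to 132 CPM and 24.8 to 76.5 CPM (1.02 ± 0.19, adjusted p = 0.00174 by edgeR). The call of DLGAP1 was lost without Metadcarc1511.2 or Metadcarc1511.3, and with both later libraries summed. PYROXD2, CHRNB4, C32H4orf36, PRKAA2, ABI3BP and PROCA1 made up the rest of the 12, with log2 fold changes between 1.08 and 1.44. Calls of C32H4orf36, PRKAA2, ABI3BP and PROCA1 were each lost without at least 1 line. ABI3BP was highest in the earliest library of 3 of 6 lines and was at 0 in all libraries of the 3 lines of dog 4.

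The 4 members lower in the earliest library were MMP3, EAF2, TMEFF2 and RMI2. EAF2, an elongation factor partner, was lowest in the earliest library in 6 of 6 lines, at 0.0565 to 2.12 CPM against 0.220 to 7.73 CPM (-1.87 ± 0.33, SE, adjusted p = 0.00147 by edgeR). TMEFF2 was lowest there in the 5 lines that had any counts of it (-1.34 ± 0.22, adjusted p = 0.00132 by edgeR), and MMP3, a matrix metalloproteinase, in 5 of 6 (-1.91 ± 0.46, adjusted p = 0.0084 by edgeR). RMI2 was lowest there in 4 of 6, with 1.17 CPM at passage 68 and 4.99 and 5.37 CPM at passages 75 and 79 of Metadcarc1511.2 (-1.07 ± 0.28, adjusted p = 0.0144 by edgeR). The call of RMI2 was lost without Adcarc1508, Metadcarc1511.2 or Metadcarc1511.3. Libraries of a line are cultures of one origin, and 3 of the 6 lines come from dog 4, so that the p-values speak for these lines. In the 5 lines other than TCC1506, the earliest libraries carry sample numbers 1 to 5 and the later ones 7 to 16 in the labels, and passage and this numbering cannot be told apart.

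**Figure D5:**
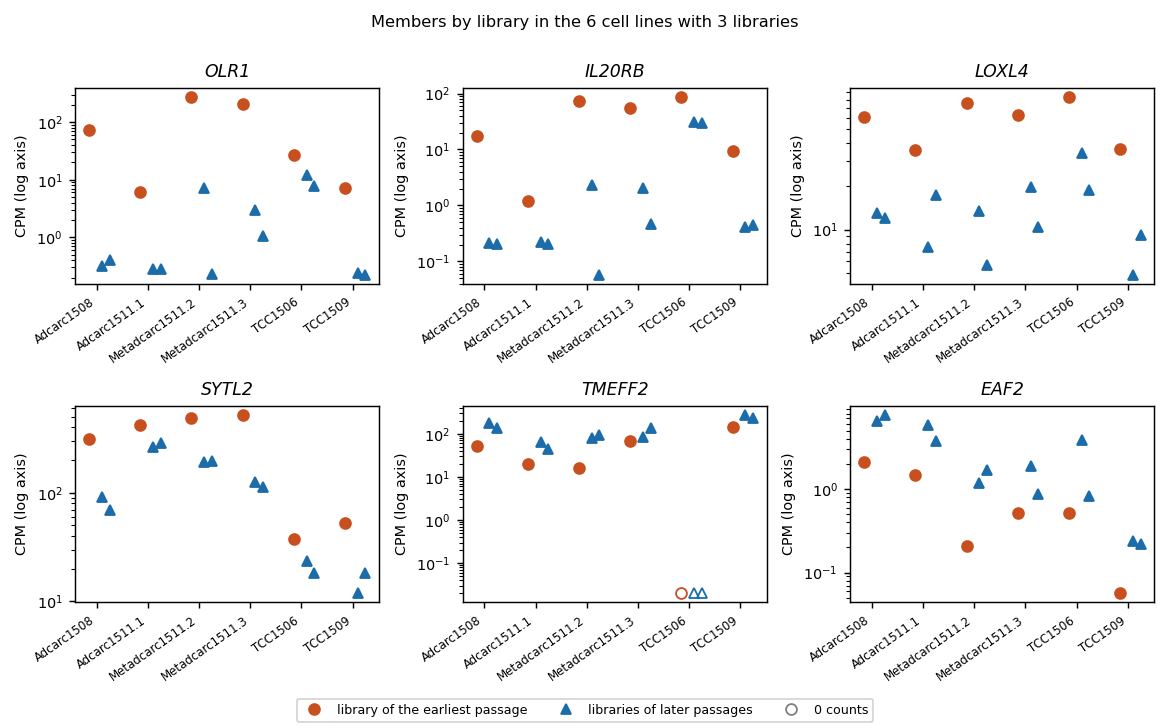
CPM (log axis) of 6 members in every library of the 6 cell lines with 3 libraries. Circles are the library of the earliest passage, triangles the later ones, and open symbols 0 counts. OLR1, IL20RB, LOXL4 and SYTL2 were highest in the earliest library of all 6 lines, and EAF2 lowest.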

How the data were processed

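The members and gene lists were chosen with earlier results of these data known. The authors trimmed reads with Trimmomatic 0.36, aligned them with STAR 2.5.3 to CanFam3.1 and deposited RSEM 1.3.0 expected counts for each gene and lane, without normalization. Expected counts were summed over lanes to 31 libraries, and further to lines, and rounded to whole numbers. They were tested with edgeR 4.0.16 (TMM, quasi-likelihood F test, Benjamini-Hochberg) in R 4.3.3 where the mean was at least 10 counts, with the dog, the pair or the line as covariate. Lines were paired with the tissue of the same animal that the labels name. Standard errors were derived from F and the log2 fold change. TPM were computed from summed counts and the deposited effective lengths. The comparison of passages was added after the data were seen. Scripts were tested on simulated data, with less spread between samples than the 4 dogs, the TCC pairs and the tissues showed. Floors cover counting error only. Libraries of a line may be technical repeats, so that p-values measure the spread between these samples. Genes that share reads with close copies are uncertain. Gene symbols were taken from the study's ranked lists, and 12 members without one are counted and not named.

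Named members are those in both rankings or on the Sin3 and JAK-STAT lists, called members of one direction in all 4 dogs (up to 10 each way), up to 2 called members of every other list or else its highest per length, the 5 highest and 5 lowest called between tissues, the 10 of widest range over lines, and the genes at the rank threshold. Alternatives were DESeq2 1.42.0, other size factors, filters, thresholds and pairing, and left-out samples. Lanes of Adcarc0846 replicate 1 whose labels run upward were placed by their titles. Adcarc1258, P1 and P3 were not analysed here.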

Additional observations from a re-analysis of the deposited data

Results flagged for a closer look

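Among the log2 ratios of line to tissue by dog of 41 named members, 1 held a dog far from the others by Dixon's criterion. Chance alone meets it in about 1 of 20 for genes not chosen by their levels. PRDX4 was at -6.95 in dog 6 and at -0.83, -0.51 and 0.30 in the other 3. It was named for its range over the lines, where TCC1509 of dog 6 was lowest, so the flag is a description and no test.

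For 3 named members both PAC metastasis pairs lay on one side and both TCC pairs on the other, a difference that was not tested. How many of all genes show this pattern was not counted, and both PAC metastasis pairs come from dog 4. NSMCE4A had -0.18 and -0.59 in the metastases (fitted log2 fold change -0.43) and 0.27 and 1.32 in TCC. OLR1 had 3.1 and 4.71 (fitted 3.81) and -3.70 and -0.06, and without replicate 1 of the lines its fitted value in the metastases was -0.93. RAB33B had 0.71 and 0.95 (fitted 0.79) and -0.03 and -0.28.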

How the results depend on the processing

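Over the 4 dogs, members called numbered 53 with DESeq2, 5 without a filter, 9 with no replicate block for the dog, 16 with 5 pairs as 5 samples, 64 with all lines against all tissues (where 19.3%, 1.86%, 4.8%, 7.55% and 22.5% of all genes were called), 0 with the 2 pairs of one series of sample numbers and 0 at an adjusted p of 0.01. They ran from 0 to 5 without 1 dog, where 0% to 3.92% of all genes were called. Without 1 replicate of the lines they ran from 1 to 3, where 1.35% to 1.79% of all genes were called. RGS1 was not the 1 called without dog 6, which was MME. In the metastases the count was 92 to 102 (23.1% to 33.3% of all genes), except 33 at the threshold of 0.01 (11.1% of all genes). With no filter it was 102 of 289 members, where 23.1% of all genes were called. Pairing moved the count from 95 to 94. In TCC DESeq2 called 12 (4.69% of all genes), and every alternative by edgeR 0. Between tissues DESeq2 called 28, no filter 10, the study's filter 7, and Ln4.2 and Ln4.3 as 2 samples 7. Of all genes 10.7%, 2.84%, 3.28% and 4.23% were called there. Ln6.2 added to P6.1 gave 0, as did the threshold of 0.01. Leaving out 1 tissue or the tissues of dog 4 gave 0 to 5, where 0.0132% to 2.43% of all genes were called. Between passages the count was 13 to 23 (2.69% to 5.78% of all genes), except 4 without the line as covariate (0.497% of all genes). DESeq2's size factors moved the median log2 fold change of all genes by less than 0.1 in each comparison. Of 46 named members, 37 kept the sign of their fold change over the 4 dogs under all alternatives that tested them. The causes were not tested. The biological coefficient of variation was 0.742 over the 4 dogs, 0.743 in TCC and 0.687 between tissues, against 0.281 in the metastases and 0.242 between passages.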
